A study of Mus musculus with 6 samples.

Results

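Netrins and the receptors that read them were followed in cells sorted as retinal vascular endothelial cells (VECs), with and without conditional deletion of the clock gene Bmal1. The 8 genes were taken by name from the deposited table of 55487 genes: the secreted ligands Ntn1 and Ntn4, the repulsive receptors Unc5a, Unc5b, Unc5c and Unc5d, and the attractive receptors Dcc and Neo1. All 8 were listed, each once. They were chosen with the comparison of the 2 genotypes in these libraries already known, so that their group values are given as a description. Counts of members past a threshold are printed beside the share of all genes, no p-value of a single member is given, and nothing is read from those counts. GFP and tdTomato double-positive cells were sorted at postnatal day 7.5 from 3 control animals (tdTomato FL/+;Pdgf-icreER) and from 3 mutants, called Bmal1;CKO, that carried Bmal1 FL/FL beside tdTomato FL/+ and Pdgf-icreER. Both groups carried the tdTomato reporter and the Pdgf-icreER transgene, which supplies the inducible Cre and the GFP, and both received tamoxifen from day 0.5 to day 2.5. The control has no floxed Bmal1, and all strains were of C57BL/6J background. Libraries 1 to 3 are control and 4 to 6 are Bmal1;CKO, numbered as in the table. The genotype comes from the column names. The sample descriptions number the libraries in another order, with the mutants first, so that no column could be tied to a single animal.

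Netrins are laminin-related guidance cues first known from growing axons. DCC and its relative neogenin, the product of Neo1, mediate attraction to netrin-1, and UNC5 receptors mediate repulsion, alone or together with DCC. UNC5 receptors and DCC are also called dependence receptors, since they can trigger cell death when no ligand is bound. In the developing retina, netrin-1 guides ganglion cell axons into the optic nerve through DCC, and UNC5B is a receptor of sprouting endothelial tip cells, where it restrains filopodia. Netrin-4 is a component of vascular and retinal basement membranes.

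The values are normalized counts, the reads on a gene divided by the size factor of the library. The libraries held 71145068 to 104017800 reads on genes. Arntl, the gene of BMAL1, had 1700, 3489 and 2928 normalized counts in control libraries 1 to 3 and 1779, 2747 and 2415 in Bmal1;CKO libraries 4 to 6. The groups overlapped in Arntl, so its level over the whole gene does not check the labels. The deleted exon was not analysed here by itself. All 12 endothelial markers had at least 10 reads in every library, with a sum of 115662 to 368990 normalized counts. The 9 microglial markers had sums 6.87 to 23.9 times as high as the endothelial ones, and rod markers summed to 263057 to 504838. The cells are therefore described as the sorted fraction, and in such bulk RNA fewer cells of a type and less RNA per cell cannot be told apart. Control library 1 stood apart, with 213 genes at 0 reads there that had at least 100 normalized counts in each of the other libraries, against 0 to 8 such genes for each of the other libraries.

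Promoter windows were found for 5 of the 8 members, Unc5a, Unc5b, Unc5c, Ntn4 and Neo1, from 250 bases before to 50 bases after a RefSeq transcript start in GRCm38.p6. The transcript starts used for Unc5c and Ntn4 lie 348 and 368 bases downstream of the annotated gene starts given below. Entries for Unc5d, Ntn1 and Dcc were missing. BMAL1 with CLOCK is known to bind the E-box CACGTG. The letters CACGTG were found in 0 of the 5 windows, against 7.15% of all 32851 windows of the same 300 bases. The variant CACGTT, searched on both strands, was found in 0 of the 5 against 4.68%, and the wider CANNTG, which includes CACGTG, in 0 of the 5 against 72.31%. The letters GGGCGG, a GC box, were found on either strand in 4 of the 5 against 35.66%, and were not found in the Unc5c window. The 250 bases before the start of Unc5a and Unc5b are shown because these 2 genes made up most of the UNC5 level. Capitals mark each GGGCGG or its complement CCGCCC, at 5 places that partly overlap in Unc5a and at 2 places in Unc5b. The Unc5a sequence is chr13:54949161-54949410 on the forward strand, with 76.8% G or C, and the Unc5b sequence is chr10:60831582-60831831 on the reverse strand, with 66.8% G or C.
Unc5a: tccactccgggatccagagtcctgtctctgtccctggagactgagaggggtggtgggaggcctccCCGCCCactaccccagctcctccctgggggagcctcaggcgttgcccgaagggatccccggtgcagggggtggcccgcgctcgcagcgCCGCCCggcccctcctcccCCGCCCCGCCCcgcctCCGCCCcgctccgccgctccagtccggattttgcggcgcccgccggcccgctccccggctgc
Unc5b: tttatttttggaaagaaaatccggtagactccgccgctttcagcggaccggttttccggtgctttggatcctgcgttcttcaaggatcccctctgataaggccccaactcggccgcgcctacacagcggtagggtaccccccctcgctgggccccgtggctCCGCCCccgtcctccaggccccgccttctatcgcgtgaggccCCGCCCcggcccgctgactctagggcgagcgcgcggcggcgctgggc

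Levels of different genes were compared as normalized counts per kb of exon. Unc5b led with a mean of 361.5 per kb (SD 229, n = 6 libraries), followed by Unc5a with 161 (SD 69.8), Neo1 with 53.9 (SD 25.1) and Ntn4 with 52.5 (SD 37.6). Unc5d had 28.8 per kb (SD 18.7), Unc5c 13.7 (SD 8.02), Dcc 13.0 (SD 3.50) and Ntn1 0.465 (SD 0.371). By mean level per kb, the sorted fraction thus held more transcript of Unc5b and Unc5a than of Neo1 and Dcc, and hardly any of Ntn1. Protein was not measured here. Each of the 7 neighbouring pairs in this order was compared within libraries, on log2(normalized count per kb + 1). The order came from the means of the same 6 libraries, so the p-values are no independent test of it. Unc5b exceeded Unc5a, Unc5a exceeded Neo1, and Dcc exceeded Ntn1 in 6 of 6 libraries, by a mean log2 difference of 1.06, 1.67 and 3.26 (two-sided exact sign-flip permutation test, p = 0.0312 for each, the smallest that 6 libraries allow). Adjusted over the 7 pairs, the exact p was 0.0729, so no neighbouring pair passed 0.05. The other 4 pairs, from Neo1 down to Dcc, took both orders among the libraries, with exact p between 0.281 and 0.906. Unc5c moved from 13.7 to 27.1 per kb when the longest transcript replaced the union of exons, which is longer in this gene than in any other of the 8.

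The plot of the 8 genes by library shows the values described in the following paragraphs.

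**Figure D1:**
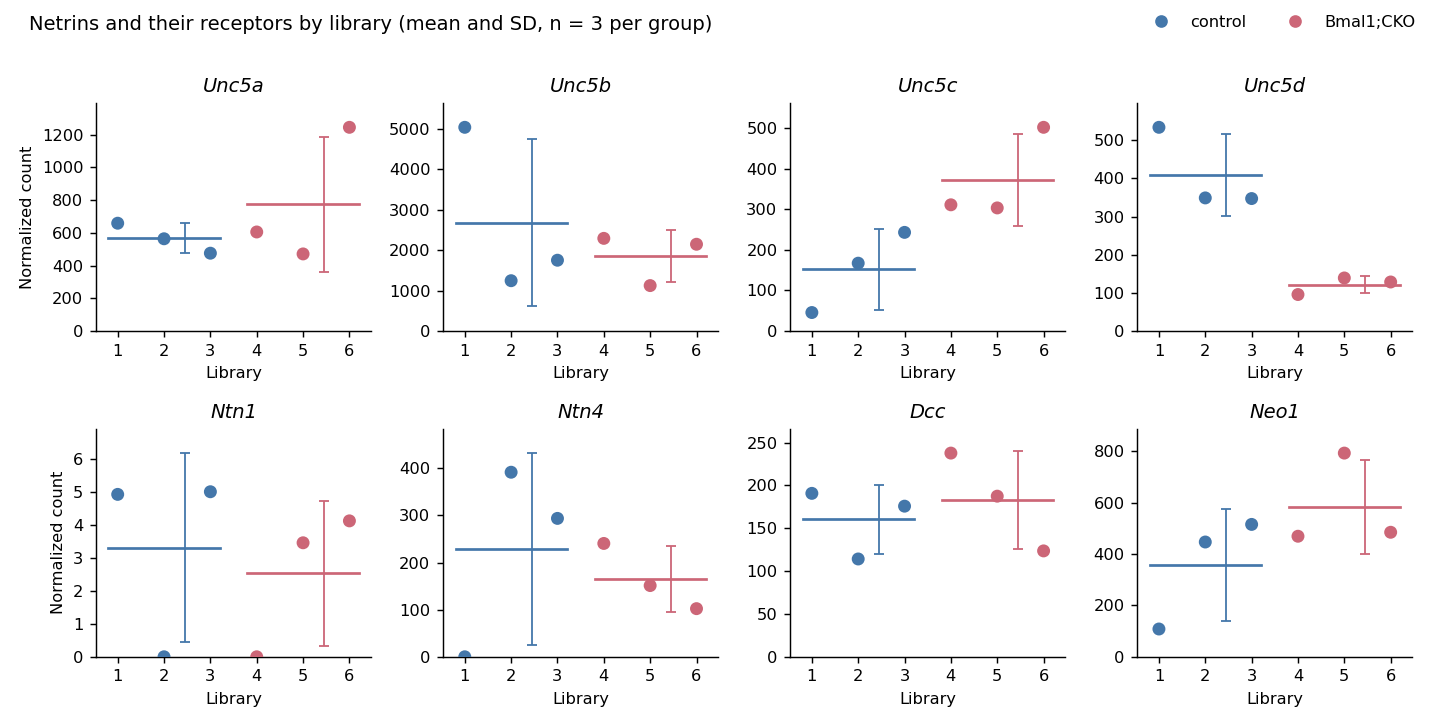
Normalized counts (vertical axes, linear, 1 scale per gene) of the 8 genes in control libraries 1 to 3 (blue) and Bmal1;CKO libraries 4 to 6 (red), with lines for group means and bars for the SD (n = 3 each). Points of the groups do not overlap in Unc5d, lower in Bmal1;CKO, and Unc5c, higher in Bmal1;CKO, and Ntn4 is at 0 in library 1.

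Unc5d, a repulsive netrin receptor that also binds FLRT proteins, was the member with the clearest lower level in Bmal1;CKO. The gene (ENSMUSG00000063626) covers 573 kb of chromosome 8, from 28646717 to 29219636 on the reverse strand of GRCm38, with 9220 bases of exon in 18 blocks. It had 534, 349 and 347 normalized counts in the control libraries and 95.6, 139 and 129 in the Bmal1;CKO libraries, from 434, 376, 486, 68, 161 and 156 reads. Every control library lay above every Bmal1;CKO library, and the lowest control value was 347 against a highest mutant value of 139. The log2 fold change was -1.74 (standard error 0.59), on the log2(normalized count + 1) scale as for all fold changes below. Of the 20459 genes tested, 1.94% had a lower fold change. With 1 library left out it stayed between -1.85 and -1.53. Svet1 is listed within Unc5d on the same strand and shares no exon with it. It had reads in control library 1 and Bmal1;CKO libraries 5 and 6 only, so its reads did not follow those of Unc5d.

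Unc5c, the paralog best known from cerebellar and spinal axons, differed between the groups in the other direction. It lies on the forward strand of chromosome 3 (ENSMUSG00000059921, 141465216 to 141834924). Its normalized counts were 45.5, 167 and 243 in control and 311, 303 and 502 in Bmal1;CKO. The groups did not overlap, but control library 3 and Bmal1;CKO library 5 were close. Of all genes tested, 13.0% had a higher fold change. The log2 fold change of 1.55 (standard error 0.79) became 0.84 without control library 1, which held 37 reads on the gene. The antisense gene Gm15688 shares 118 bases of exon with Unc5c and had 350 reads in all 6 libraries together, and the use of strand in the counting is not given in the sources used here.

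Within a library the ratio of Unc5d to Unc5c does not depend on the scaling between libraries. It was 11.7, 2.09 and 1.43 in the control libraries and 0.308, 0.459 and 0.256 in the Bmal1;CKO libraries. Unc5d thus exceeded Unc5c in normalized counts in 3 of 3 control libraries and fell below it in 3 of 3 Bmal1;CKO libraries, which follows from the values above and is no further evidence. This ratio was chosen after seeing the data.

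Unc5b, the endothelial member of the family, did not separate the groups. The gene (ENSMUSG00000020099) lies on the reverse strand of chromosome 10 from 60762593 to 60831581. It had 5031, 1243 and 1748 normalized counts in control and 2288, 1122 and 2143 in Bmal1;CKO. Control library 1 stood above all others, and the remaining libraries of both groups overlapped. The log2 fold change was -0.33 (standard error 0.56), and 0.26 without control library 1, so its sign rested on that library.

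The sum of the endothelial markers was highest in control library 1, at 368990, and lowest in Bmal1;CKO library 5, at 115662, as was Unc5b. Cldn5 alone gave 201094 of the sum in library 1. Pecam1 and Tie1 were highest in Bmal1;CKO library 6 (13475 and 8230, against 11067 and 5919 in library 1), and the other markers in library 1. Of the 12 markers, 12 had a lower fitted value in the mutants (median -0.50 on the log2 scale), and 0 passed a false discovery rate (FDR) under 0.05 by limma-trend, a linear model with moderated variances fitted over all genes, with 0 at an unadjusted p under 0.05. Without control library 1 the count was 10 of 12, with a median of -0.16. Set against this sum, Unc5b had 13.6, 6.09 and 9.25 counts per 1000 endothelial marker counts in control and 11.1, 9.70 and 8.83 in Bmal1;CKO. The means were 9.66 ± 3.79 and 9.87 ± 1.14 (SD, n = 3 each), a difference smaller than the SD of either group. This scaling was also chosen after seeing the data. The 6 tip cell markers summed to 16068 to 29102 in control and 10974 to 30175 in Bmal1;CKO, and Unc5b per 1000 of these was 60.1 to 247 and 71.0 to 139.

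Unc5a, a mainly neuronal paralog, was the second most abundant member per kb. It lies on the forward strand of chromosome 13 (ENSMUSG00000025876, 54949411 to 55006018). Its normalized counts were 658, 563 and 475 in control and 605, 471 and 1244 in Bmal1;CKO. Library 6 alone stood above the range of the control libraries, and the log2 fold change of 0.34 (standard error 0.49) was -0.07 without it. Exons of Unc5a overlap those of Hk3 on the opposite strand over 34 bases, and Hk3 had 19243 reads in all 6 libraries together.

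As shares of the summed UNC5 level per kb, Unc5b made up 50.3% to 78.7% and Unc5a 15.5% to 43.8% over the 6 libraries. Unc5d made up 5.67%, 9.95% and 8.49% in control and 1.93%, 4.67% and 2.05% in Bmal1;CKO. Unc5c made up 0.233%, 2.30% and 2.86% in control and 3.02%, 4.90% and 3.85% in Bmal1;CKO. The 2 receptors whose groups did not overlap were therefore the minor ones in every library.

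**Figure D2:**
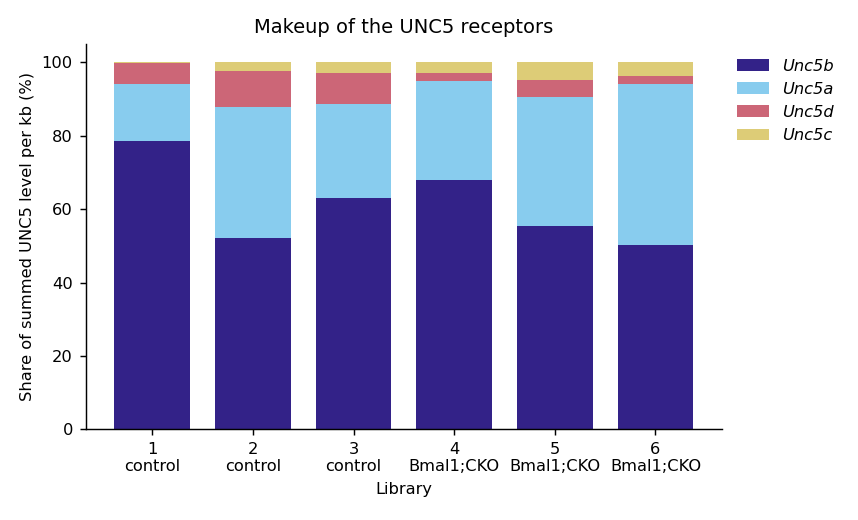
Share of each UNC5 gene (vertical axis, percent, stacked from 0) in the summed UNC5 normalized counts per kb of exon, by library. Unc5b and Unc5a together fill most of every bar, and the Unc5d segment is 5.67% to 9.95% in control and 1.93% to 4.67% in Bmal1;CKO.

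Neo1, the gene of neogenin, which binds repulsive guidance molecules as well as netrins, had 108, 447 and 516 normalized counts in control and 470, 794 and 485 in Bmal1;CKO. The groups overlapped, and control library 1 was the low one. Its log2 fold change was 0.95 (standard error 0.70) with all libraries and 0.24 without control library 1. The gene (ENSMUSG00000032340) lies on the reverse strand of chromosome 9, from 58874687 to 59036441.

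Dcc, the main attractive receptor, varied least of the 7 fitted members over the 6 libraries, with an SD of 0.37 on the log2 scale. Its normalized counts were 191, 114 and 176 in control and 238, 187 and 124 in Bmal1;CKO. The groups overlapped over most of their range. The log2 fold change was 0.17 (standard error 0.66), and it changed sign, to -0.05 and -0.04, without library 2 and without library 4. The gene (ENSMUSG00000060534) spans 1097 kb of chromosome 18, from 71253634 to 72351069 on the reverse strand.

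Of the ligands, Ntn4 was detected in 5 of the 6 libraries. It lies on the forward strand of chromosome 10 (ENSMUSG00000020019, 93640681 to 93747207). It had 0, 392 and 294 normalized counts in control and 241, 151 and 102 in Bmal1;CKO. The count of 0 in control library 1 allows up to 3.69 normalized counts at that depth, from counting error only. Control libraries 2 and 3 lay above every Bmal1;CKO library, and control library 1 lay below them all. The log2 fold change was accordingly 1.68 (standard error 2.18) with all libraries and -1.13 (Bmal1;CKO lower) without control library 1. It was -0.49 by the quasi-likelihood fit of edgeR under TMM and -0.47 by DESeq2, so no direction can be given for Ntn4.

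In control library 1, low or absent values were shared with markers of other cell types. Abcc9 of the pericyte list, Pax2 of the astrocyte list, Pou4f2, Thy1 and Slc17a6 of the ganglion cell list, Gad1, Calb1 and Opn1mw were at 0 there. The summed levels of the pericyte, astrocyte, Müller glia, ganglion cell, amacrine, horizontal, bipolar, cone and erythroid lists were each lowest in that library, and those of the endothelial and microglial lists were highest there. The part of these cells in the Ntn4, Neo1 and Unc5c values was not tested.

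Ntn1 was close to undetected. The gene (ENSMUSG00000020902, chromosome 11, reverse strand, 68209364 to 68400823) had 4, 0 and 7 reads in control and 0, 4 and 5 in Bmal1;CKO. It was the only one of the 8 that missed the filter of 10 reads in at least 3 libraries, so that 7 were fitted. No fold is given, since both groups are near the 3 reads that a count of 0 allows.

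**Figure D3:**
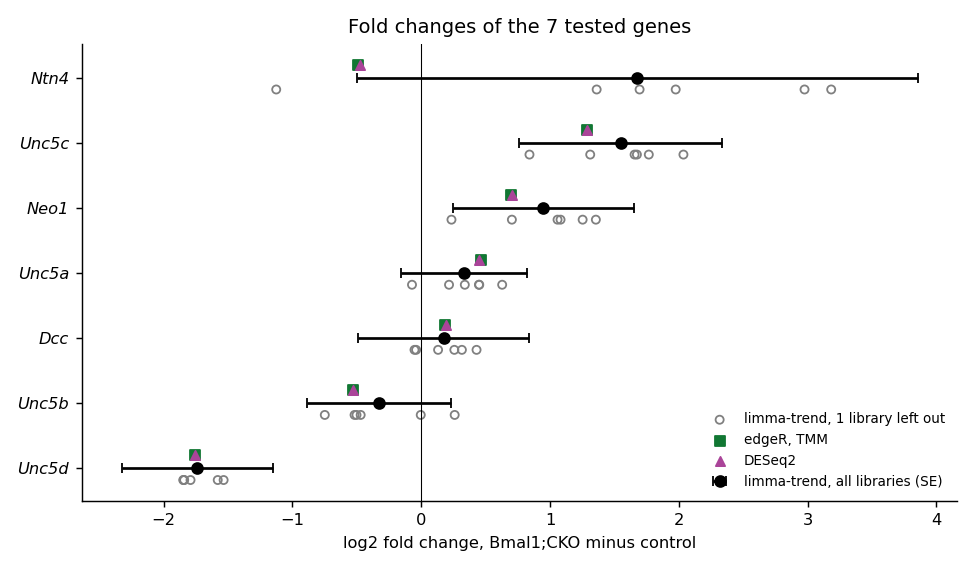
Log2 fold change (horizontal axis, Bmal1;CKO minus control) of the 7 fitted genes by limma-trend (black, bars show the standard error), with 1 library left out (open circles), by edgeR (green squares) and by DESeq2 (purple triangles). Unc5d stays between -1.85 and -1.53 when 1 library is left out, and Ntn4 lies on both sides of 0.

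Over all genes, limma-trend called 0 of 20459 (0%) at FDR < 0.05, with 1007 at an unadjusted p under 0.05, and edgeR with TMM scaling also called 0. Of the 7 fitted members, 0 passed FDR < 0.05 by limma-trend, by edgeR with either scaling or by DESeq2, which called 0.327% of all genes. At an unadjusted p under 0.05 limma-trend listed 1 of the 7, beside 4.92% of all genes (1.75% lower and 3.17% higher in Bmal1;CKO). Groups did not overlap in 2 of the 7, Unc5d (lower) and Unc5c (higher), beside 11.2% of all genes, of which 4.54% lower and 6.62% higher. Because the members were chosen on this contrast, nothing is read from these counts. By sign alone 5 of the 7 were higher and 2 lower in Bmal1;CKO, or 4 and 3 with edgeR, beside 56.6% of all genes higher. The median log2 fold change was 0.34 over the members and 0.11 over all genes, the latter -0.03 with edgeR under either scaling.

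Markers of the cell types that a retinal sort could hold are given beside these values. In 13 of 13 lists the sums of control and Bmal1;CKO overlapped over the 6 libraries. Without control library 1, a comparison added after seeing the data, the sums of 4 lists no longer overlapped. Ganglion cell, astrocyte and horizontal cell markers were then lower in Bmal1;CKO, and microglial markers were higher. The ganglion cell margin was narrow, with 16034 in library 2 and 15787 in library 4. The share of all genes that separate in this way was not computed, so nothing is read from these 4 lists. The 8 ganglion cell markers, from a cell type known to express netrin receptors, summed to 7094, 16034 and 17446 in control and to 15787, 8061 and 10132 in Bmal1;CKO. Of the 7 tested, 4 had a higher and 3 a lower fitted value with all libraries (median 0.11 on the log2 scale), and 7 of 7 were lower without control library 1 (median -0.57). Pou4f1, a transcription factor of ganglion cells, had 35.7, 316 and 384 normalized counts in control and 95.6, 74.3 and 79.9 in Bmal1;CKO. It was thus highest in control libraries 2 and 3, and lowest in control library 1, where Unc5d was at its highest. Sncg, another marker of these cells, had 2239, 2465 and 2315 in control and 2356, 1017 and 919 in Bmal1;CKO. Pou4f1 and Sncg were named after their values were seen and had the lowest fitted values of the list (-0.98 and -0.85). The 4 higher ones were Nefl (0.11), Nefm (0.56), Slc17a6 (1.88) and Thy1 (1.90). The part of ganglion cells in the Unc5d and Unc5c values was not tested.

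The signs of several other lists also depended on control library 1, where low values set the fitted fold change. For 12 of the 85 tested markers the sign of the fitted value differed from that of the difference in group means. Over all genes the median log2 fold change was 0.11, and 0.002 without control library 1. In pericytes 4 of 6 had a higher fitted value (median 0.88), each with a lower mean in Bmal1;CKO. Without control library 1, 0 of 6 were higher (median -1.72). The pericyte sums were 2367, 6992 and 45855 in control and 7571, 4104 and 6773 in Bmal1;CKO. The lower means in Bmal1;CKO thus rested on control library 3, and control library 2 lay within the mutant range. Control library 3 also had the highest astrocyte and erythroid sums, 5451 and 19008. For amacrine cells the count of higher markers went from 5 of 7 (median 0.46) to 1 of 7 (median -0.30) without that library, and for cones from 6 of 7 (median 0.47) to 2 of 7 (median -0.15). The 2 tested astrocyte markers had 1 higher and 1 lower, and 0 higher without it, and the 2 horizontal cell markers had 1 higher and 1 lower in both cases. Tip cell markers had 2 of 6 higher (median -0.06), or 1 of 6 (median -0.33). Other lists kept their direction. Of the rod list 8 of 9 were lower (median -0.31), or 9 of 9 without control library 1, and of the bipolar list 6 of 7 (median -0.64), or 7 of 7. Erythroid markers were lower in 4 of 5 (median -1.0), or 5 of 5. Microglial markers were higher in 8 of 9 (median 0.41), or 9 of 9 (median 0.91), and Müller glia markers in 6 of 6 (median 0.49), or 4 of 6. No marker passed FDR < 0.05 by limma-trend, and 3 of the 85 had an unadjusted p under 0.05, beside 4.92% of all genes. Groups did not overlap in 2 of the 85, beside 11.2% of all genes, so nothing is read from them. The 2 were named after their values were seen. They were Sox9 of the Müller glia list, with means of 1879 in control and 4470.4 in Bmal1;CKO, and Cnga1 of the rod list, with 9295 and 3762. The part of these cells in the members' values was not tested.

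**Figure D4:**
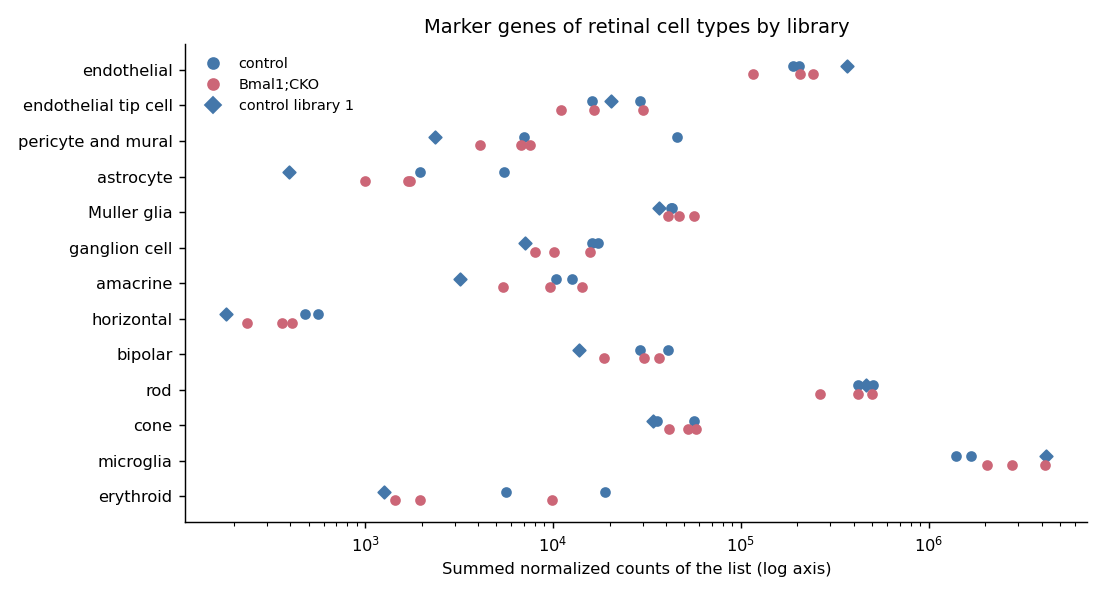
Summed normalized counts (horizontal axis, log scale) of 13 marker lists in control (blue) and Bmal1;CKO (red) libraries, with control library 1 as a diamond. The colours overlap in every list, and control library 1 has the highest endothelial sum, 368990, and the lowest ganglion cell sum, 7094.

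The other genes of the pathway were taken from a list of 52 partners: 12 other ligands, 12 co-receptors and other receptors, and 28 intracellular effectors. Of these, 51 passed the filter, all but Ntn5. By limma-trend 0 of the 51 passed FDR < 0.05, in either direction. At an unadjusted p under 0.05 there were 0 higher and 3 lower, 5.88% of the list beside 4.92% of all genes. The median log2 fold change was 0.04 over the list, with 26 genes higher and 25 lower, beside 0.11 over all genes. By role the medians of the fitted values were 0.60 for ligands (7 higher, 4 lower), 0.17 for receptors (7 and 5) and -0.10 for effectors (12 and 16). Without control library 1 they were -0.19 for ligands (5 higher, 6 lower), 0.03 for receptors (6 and 6) and -0.16 for effectors (12 and 16). The median over the list was then -0.14 (23 and 28), beside 0.002 over all genes. The ligand median was the value of Cbln4, which had 0 reads in control library 1 and a lower mean in Bmal1;CKO (95.2 against 196), and for 8 of the 51 the sign of the fitted value differed from that of the means. Groups did not overlap in 7 of the 51, or 13.7%, beside 11.2% of all genes.

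Ntng1, which encodes the membrane-anchored netrin-G1 that binds the synaptic protein encoded by Lrrc4c and not DCC or UNC5, had the lowest fold change of the partners. Its normalized counts were 903, 729 and 409 in control and 45.01, 82.9 and 131 in Bmal1;CKO. All control libraries lay above all Bmal1;CKO libraries. By limma-trend it differed by -3.02 on the log2 scale, with a standard error of 0.68 and an adjusted p of 0.825. DESeq2 gave an adjusted p of 0.00144, the lowest of the alternatives, and the highest was 1.00. With 1 library left out the fold change lay between -3.38 and -2.62. Its relative Ntng2, named after its values were seen, had 25.8, 112 and 90.7 in control and 189.9, 176 and 213 in Bmal1;CKO. For Ntng2 limma-trend gave 1.57 on the log2 scale, with a standard error of 0.84 and an adjusted p of 0.883.

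Itgb1, the β1 integrin subunit, a partner of laminin-type ligands that include netrin-4, was the most abundant receptor of the list by normalized counts. It had 13269, 13767 and 22671 in control and 7127, 7971 and 11591 in Bmal1;CKO. The groups did not overlap. By limma-trend Itgb1 differed by -0.88 on the log2 scale, with a standard error of 0.31 and an adjusted p of 0.883, and by -0.64 without control library 3. Cdc42, a small GTPase that acts below DCC on the cytoskeleton, had 33195, 41293 and 42421 against 22129, 20978 and 29655. Here too the groups did not overlap (log2 fold change -0.69, standard error 0.26, adjusted p = 0.883 by limma-trend). Over the alternatives the adjusted p ran from 0.439 to 1.00 for Itgb1 and from 0.437 to 1.00 for Cdc42.

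The most abundant ligand was Rgmb, a neogenin ligand, with 3877, 1646 and 3883 normalized counts in control and 2579, 2557 and 3554 in Bmal1;CKO. The groups overlapped and the log2 fold change was -0.03 (standard error 0.39). The most abundant effector was Map1b, a microtubule protein of growing axons, with 39680, 44891 and 42496 against 45157, 76114 and 61985. The groups did not overlap, by a narrow margin between libraries 2 and 4 (log2 fold change 0.50, standard error 0.28). Ntn3 and Appl1, named after their values were seen, complete the 7 partners whose groups did not overlap. Ntn3, another secreted netrin, had 9.84, 578 and 430.1 against 581, 1352 and 868, with libraries 2 and 4 nearly equal. Appl1, an adaptor that binds DCC, had 1369, 2039 and 1229 against 779, 1027 and 936.

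**Figure D5:**
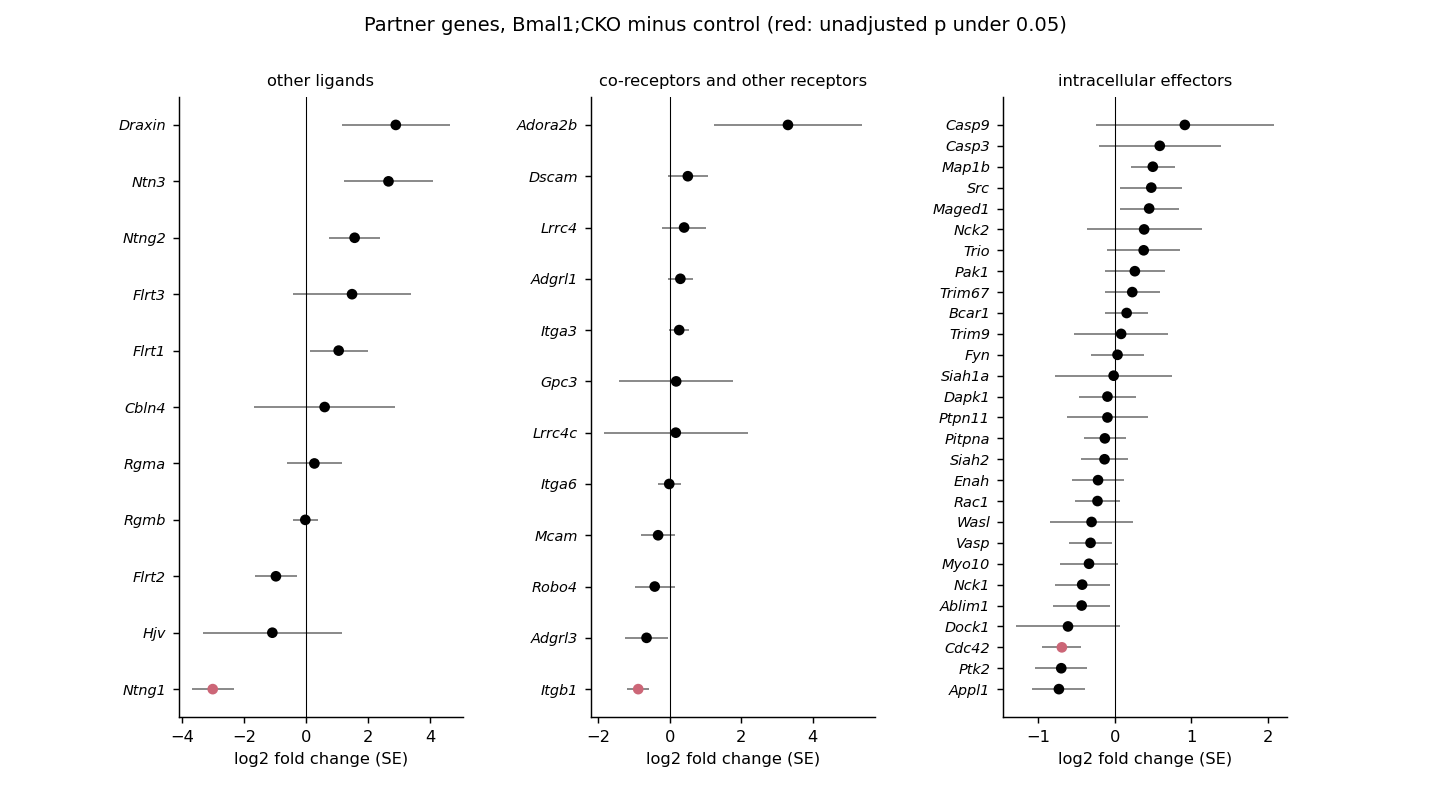
Log2 fold change (horizontal axes, Bmal1;CKO minus control, bars show the standard error from limma-trend) of the 51 tested partner genes in 3 role groups. Red marks the 3 genes at an unadjusted p under 0.05, Ntng1, Itgb1 and Cdc42, all lower in Bmal1;CKO, and 26 of the 51 lie above 0.

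Genes with the most similar pattern were found for each fitted member among 17212 genes with a mean of at least 50 normalized counts. Likeness was the root mean square difference of the log2 profiles over the 6 libraries after centring each gene. The nearest to Unc5d were Acsl4, an acyl-CoA synthetase, at 0.15, and the kinase gene Hipk3, at 0.24. The nearest to Unc5c were Pkd2, a cation channel of cilia, at 0.14 and Zfp687 at 0.16. Unc5b was nearest to Zswim1 and the mechanosensitive channel gene Piezo2, both at 0.13, and Unc5a to Prdm11 and the protocadherin gene Dchs1, both at 0.13. Neo1 was nearest to Pced1a at 0.16 and Robo3, a receptor of commissural axons, at 0.19. Dcc was nearest to Mul1 at 0.07 and Gm6612 at 0.08, and Ntn4 to H2bc21 at 0.30. Many other genes were also near: 178 genes lay within 0.5 of Unc5d, 199 of Unc5c, 965 of Unc5b and 4931 of Dcc. The SD of Dcc was 0.37, so a flat profile also lies within 0.5 of it. Its count is thus no measure of a shared shape, and the counts are not compared between members.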

How the data were processed

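Cells sorted as retinal VECs from 3 control and 3 Bmal1;CKO pups were profiled by RNA-seq. Amplification used Smart v4 and library preparation Nextera XT. The authors used FastQC and Trimmomatic on the reads, Bowtie for alignment to mm10 (GRCm38), featureCounts for gene counts, and DESeq2. Tool versions are not given in the sources used here. The authors deposited a signal: per gene, whole reads over a size factor. Columns of the authors' own comparison (mean, fold change and its error, statistic and p-values) were not used. Dividing each column by its smallest value above 0 gave whole reads for 100% of the values within 0.01. Total reads on genes per library bound the precision.

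The main test was limma-trend (limma 3.58.1, R 4.3.3) with Benjamini-Hochberg adjustment, on log2(normalized count + 1). A gene needed 10 reads or more in 3 or more libraries, which 20459 had. edgeR 4.0.16 and DESeq2 1.42.0 were run on the recovered reads as alternatives, and other filters, pseudocounts and each library left out. The test was tested on simulated data. With 3 libraries a group, p-values measure the spread between libraries, in which animal, sort and amplification cannot be told apart. Exon lengths and 1-based coordinates came from GENCODE M21 (GRCm38), promoters from RefSeq. The symbol Hfe2 was matched to Hjv. Named genes were the 8 members, partners at an unadjusted p under 0.05, the most abundant partner per role, Arntl and the 2 genes most like each member. One gene that this rule names is not reported here. The members and lists were chosen with earlier results of these data known. Tables and figures used Python 3.11.15 with pandas, scipy and matplotlib.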

Additional observations from a re-analysis of the deposited data

How the results depend on the processing

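No paired analysis was possible because the columns of the table carry numbers that disagree with the replicate numbers of the samples. The sources used here also name no litter or batch shared by a control and a mutant animal. Equal replicate numbers in both groups are thus not known to mark pairs. Of all genes, DESeq2 called 67 at FDR < 0.05 and the filter of at least 1 read in total 1, against 0 by limma-trend, and leaving out 1 library gave 0 to 6, 6 of them without library 1. The count of 1007 at an unadjusted p under 0.05 ran from 444 without library 5 to 2444 without library 3, and it was 472 without library 4 and 1769 without library 1. Of these genes 64.3% were higher in Bmal1;CKO by limma-trend, 50.1% by edgeR with TMM scaling, 50.5% with DESeq2 size factors and 43.8% by DESeq2. Among the members 0 (without library 4) to 2 (without library 3) had an unadjusted p under 0.05, and 0 were called at FDR < 0.05 under each alternative. Among the partners DESeq2 called 1, Ntng1 (log2 fold change -2.97), and the count of 3 at an unadjusted p under 0.05 ran from 1 without library 4 or 5 to 7 without library 1. The partner median ran from -0.14 without library 1, beside 0.002 over all genes, to 0.18 without library 3, beside 0.15. It was -0.16 by edgeR with TMM scaling, beside -0.03 over all genes. With all libraries limma-trend gave 0.11 over all genes. Leaving out 1 library turned the sign of Unc5a (-0.07), Unc5b (0.26), Ntn4 (-1.13) and Dcc (-0.05 and -0.04), and edgeR and DESeq2 turned that of Ntn4 (-0.49 and -0.47). The number of neighbouring pairs in 1 order in every library stayed at 3 with the longest transcript and ran from 3 to 4 with 1 library left out. Ntn1 had few reads in every library. Ntn4 had 0 reads in library 1, which held 87212411 reads on genes, and 422 reads in library 2, which held 80277953. The reason for the 0 of Ntn4 in library 1 was not tested.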
